A study of Mus musculus with 16 samples.

Results

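Cd4, Cd8a and Cd8b1, the 3 genes of the CD4 and CD8 coreceptors, were followed across every group of a microarray study of early mouse thymocytes. They were taken by symbol, each had a single probe set on the array, and they are 3 of 19531 genes with a probe set of 1 symbol. All 3 were among the 10689 genes bright enough to test. The study used 16 arrays of RNA from thymocytes of mice aged 4 weeks, in 8 groups of 2 arrays. The hosts were B6g7, a C57BL/6 line with the MHC region of NOD, or NOD itself, the strain that develops autoimmune diabetes. Mice were either without a transgene (non-Tg, a polyclonal repertoire) or carried the BDC2.5 TCR tg, here BDC, which are the rearranged T cell receptor genes of a CD4 T cell clone that attacks pancreatic islets. In every group, cells bearing CD4 or CD8 were first killed with complement, and the remaining cells were sorted as lacking CD4, CD8 and lineage markers. The sorted DN2-3 cells were positive for CD25, and the DN4 cells were negative for CD44 and CD25. All non-Tg arrays came from females, and each BDC group had 1 male array (replicate 1) and 1 female array (replicate 2). The labels do not say whether a sample was 1 animal or a pool, nor which promoter drives the transgene, so a p-value reflects the spread between arrays of a group, which may be technical. The gate removed cells by the proteins of these same genes, so the values below are mRNA levels in cells that stained negative for the proteins.

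CD4 is a single-chain receptor that binds MHC class II, and CD8 is a dimer of an alpha chain (Cd8a) and a beta chain (Cd8b1), or of 2 alpha chains, that binds MHC class I. CD4 and the CD8 alpha chain carry the kinase LCK on their cytoplasmic tails and bring it to the T cell receptor. Double-negative thymocytes hold both loci largely silent. After a signal from the pre-T cell receptor at the DN3 stage, cells pass through DN4 and switch on the CD8 genes, in many mouse strains shortly before Cd4, to become double-positive cells. An early rearranged transgenic receptor can replace the pre-T cell receptor at this point, and double-negative cells of such mice include cells that resemble gamma-delta T cells. All 3 genes lie on chromosome 6, where Cd8b1 and Cd8a are neighbours with 0 annotated protein-coding genes between them, while 419 such genes separate Cd8a from Cd4.

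The start of Cd8a is shown because no promoter window of Cd4 or Cd8b1 was in the sources used here. This RefSeq promoter window (GRCm38.p6, chr6:71373177-71373476, plus strand, 250 bases before to 50 after the start) was matched for 1 of the 3 genes, with matches to the E-box motif CANNTG in capitals.
Cd8a: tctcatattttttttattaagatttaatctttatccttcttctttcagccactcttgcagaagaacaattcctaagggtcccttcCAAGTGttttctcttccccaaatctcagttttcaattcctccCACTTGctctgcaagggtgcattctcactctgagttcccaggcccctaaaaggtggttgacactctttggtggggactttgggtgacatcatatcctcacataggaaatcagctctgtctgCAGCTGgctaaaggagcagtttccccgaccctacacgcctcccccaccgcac
The window holds 3 E-box matches, the motif read by E proteins, beginning 165, 123 and 2 bases before the start, and the motif reads as CANNTG on either strand. An E-box is common: 72.3% of 32817 promoter windows of this length hold at least 1. The RUNX motif TGTGGT (in 16.8% of windows), the GATA motif AGATAA (11.2%), the ETS motif ACTTCC (23.8%) and the TCF/LEF motif CTTTGA (16%) were searched on both strands and have no match in these letters. RefSeq holds 2 curated transcripts of Cd8a, which the single probe set does not separate.

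Values are RMA intensities on the log2 scale, in which 1 unit is a 2-fold difference. Array medians ran from 123 to 138 on the linear scale, and the 2 arrays of a group had a correlation over genes of 0.986 to 0.997. The replicates of NOD DN2-3 stood apart, with a median absolute difference of 0.24 against 0.09 to 0.14 in the other pairs. Replicate 1 of that pair had the narrowest spread of any array. Its ratio of upper to lower quartile was 6.82, against 9.32 in replicate 2. It also had the highest median, 7.11 against 7.04 in log2. Cd8a and Cd8b1 read higher on replicate 1 (7.04 and 7.21 against 6.47 and 6.29) and Cd4 lower (6.88 against 7.02). Whether the narrow spread raised the CD8 values there was not tested. Il2ra and Cd44, the genes of the CD25 and CD44 gates, followed the sort. Il2ra, which encodes CD25, ran from 12.36 to 13.21 in the DN2-3 group means and from 9.10 to 10.38 in DN4. Cd44 was at 7.67 to 8.10 in DN2-3 and at 6.18 to 6.88 in DN4. Kit, a receptor of early progenitors that is not among the stated gates, was at 9.82 to 10.26 in DN2-3. In DN4 it was at 8.32 to 8.53 in the non-Tg groups, 8.93 in BDC/NOD and 9.61 in BDC/B6g7. As a gauge of signal without expression, Xist, the transcript of the inactive X chromosome, read 5.70 to 6.73 on the 4 male arrays. Of 8 DN2-3 arrays, 3 were at or below 6.73 for Cd4, 4 for Cd8a and 1 for Cd8b1, so differences against those groups may understate the change. In DN4 the only such value was Cd4 on BDC/B6g7 replicate 1 (6.58). A second gauge, 3 Y-linked probe sets on the 12 female arrays, read lower, from 3.88 to 5.98. The lowest value of any member was 6.29, above that gauge, so the level of silent genes is uncertain.

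Cd8b1 had the widest range, from 6.29 to 11.09 over the arrays. It was highest in B6g7 DN4 cells, at 11.09 and 11.07 on the 2 arrays (11.08 ± 0.01, SD, n = 2). NOD DN4 followed at 9.36 and 9.52 (9.44 ± 0.11), then BDC/NOD DN4 at 9.23 and 9.10 (9.16 ± 0.09). These 3 groups stood clear of all others, and the first stood clear of the next by 1.64 ± 0.22 log2 (limma, adjusted p = 4.2e-04). In the middle lay BDC/NOD DN2-3 at 7.97 and 8.08, BDC/B6g7 DN4 at 8.07 and 7.97, and BDC/B6g7 DN2-3 at 8.11 and 7.69. These 3 groups overlapped on their arrays, and neighbours in the order differed by 0.003 and 0.12. B6g7 DN2-3 was lower, at 6.83 and 7.08, and NOD DN2-3 was lowest in the mean with arrays that disagreed, at 7.21 and 6.29 (6.75 ± 0.65).

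Cd8a ran from 6.42 to 9.57 with the same leading groups. B6g7 DN4 read 9.57 and 9.39, NOD DN4 8.85 and 8.97, and BDC/NOD DN4 8.50 and 8.57, with no overlap between their arrays. Below them was a gap of 1.35 ± 0.18 (limma, adjusted p = 2.8e-04) to BDC/NOD DN2-3, at 7.05 and 7.32. BDC/B6g7 DN4 read 6.96 and 6.94, so these DN4 cells were at the level of BDC/B6g7 DN2-3, which read 7.13 and 6.68. NOD DN2-3, at 7.04 and 6.47, and B6g7 DN2-3, at 6.42 and 6.56, completed the order. None of the last 5 groups differed from its neighbour in the limma fit (adjusted p from 0.293 to 0.847).

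Cd4 had the narrowest range, from 6.46 to 8.42, and another order. NOD DN4 was highest, at 8.05 and 8.42 (8.24 ± 0.26), 0.72 ± 0.14 above the next group (limma, adjusted p = 0.00281). BDC/NOD DN4 read 7.60 and 7.44 and B6g7 DN4 read 7.30 and 7.46, and these overlapped. The DN2-3 groups of NOD hosts came next, at 6.88 and 7.02 in NOD and 6.96 and 6.87 in BDC/NOD. BDC/B6g7 DN4 read 6.58 and 6.99, between them and B6g7 DN2-3 at 6.62 and 6.75. BDC/B6g7 DN2-3 was lowest, at 6.49 and 6.46. From NOD DN2-3 down, no neighbours differed in the limma fit (adjusted p from 0.297 to 0.868).

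**Figure D1:**
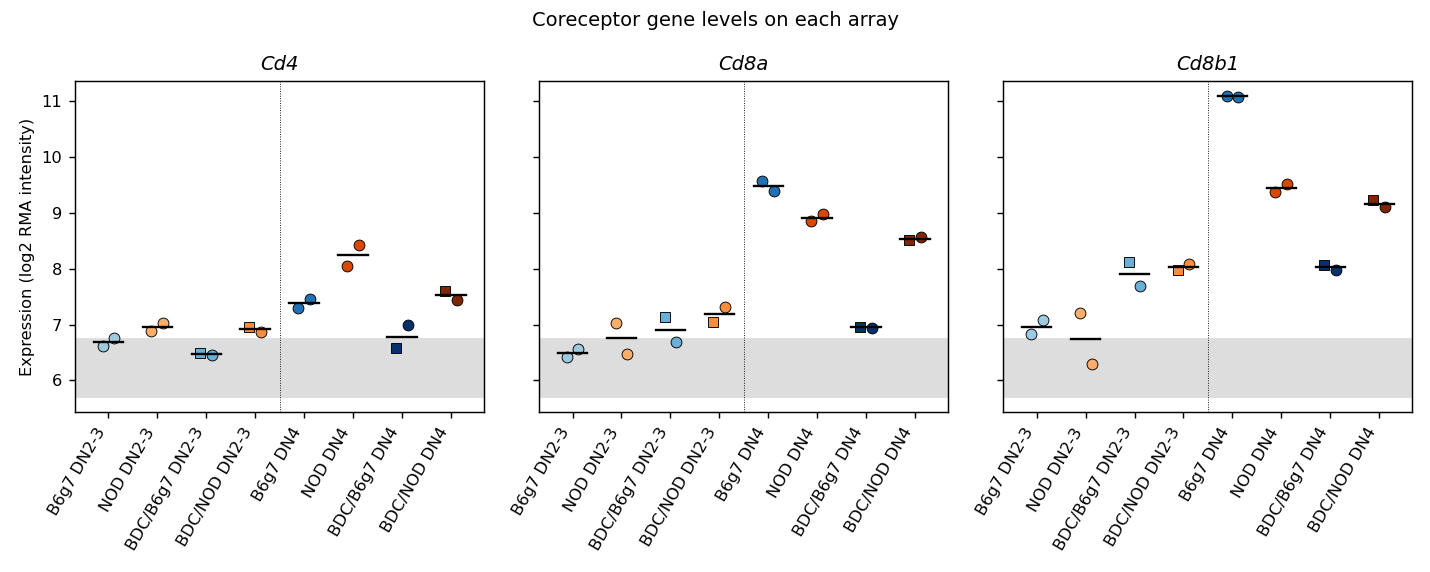
Log2 RMA intensity of Cd4, Cd8a and Cd8b1 on each array (circles, female; squares, male), by group along the x axis, with group means as bars; the grey band is the range of Xist on the 4 male arrays, 5.70 to 6.73. Both CD8 genes are high in B6g7 DN4, NOD DN4 and BDC/NOD DN4. BDC/B6g7 DN4 stays with the DN2-3 groups for Cd8a, and for Cd8b1 with the BDC DN2-3 groups, above the non-Tg DN2-3 groups.

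The stage comparison asks how each gene changes from DN2-3 to DN4. In non-Tg B6g7 cells all 3 members were called higher in DN4, where 17.8% of tested genes were higher. Cd8b1 rose 17.5-fold (4.13 ± 0.22 log2, limma adjusted p = 3.8e-08), which ranked 2 among 10689 genes by size. Cd8a rose by 2.99 ± 0.18 (adjusted p = 8.0e-08, rank 11), and Cd4 by 0.70 ± 0.14 (adjusted p = 0.00189). In non-Tg NOD cells all 3 also rose, where 26.3% of genes did. There the increase of Cd8b1 was 2.69 ± 0.22 and that of Cd8a 2.16 ± 0.18, while Cd4 gained 1.29 ± 0.14 (adjusted p = 2.2e-05). With the arrays of NOD DN2-3 left out in turn, the Cd8b1 increase ran from 2.23 to 3.15 and kept its call.

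In BDC cells the calls differed between the hosts, a difference that was not tested as such. In BDC B6g7 cells none of the 3 was called, where 50.8% of genes were. Cd8b1 differed by 0.12 ± 0.22 (95% confidence interval -0.36 to 0.60), Cd8a by 0.05 ± 0.18 (-0.33 to 0.43) and Cd4 by 0.31 ± 0.14 (adjusted p = 0.089). At an unadjusted p under 0.05 limma would call 1, Cd4. With the replicate number as a block within strain and genotype, Cd4 passed with the same difference (adjusted p = 0.0357). Without replicate 1 of BDC/B6g7 DN4, the male array, its difference was 0.51 ± 0.15 (adjusted p = 0.0188). In BDC NOD cells all 3 rose, where 7.67% of genes did. Cd8a rose by 1.35 ± 0.18 (adjusted p = 2.8e-04, rank 45), Cd8b1 by 1.14 ± 0.22 (adjusted p = 0.00516, rank 85) and Cd4 by 0.61 ± 0.14 (adjusted p = 0.0151). The Cd8b1 call was lost without replicate 1 of BDC/NOD DN4 (1.07, adjusted p = 0.0535), and the Cd4 call without any of the 4 arrays compared (0.53 to 0.69, adjusted p from 0.0554 to 0.132). With the 4 male arrays left out, so that every BDC group has a lone array assumed to vary like the others, the differences were 1.25, 1.02 and 0.57 and no call was kept (adjusted p = 0.0763, 0.331 and 0.329). Averaged over strains, the stage change was smaller in BDC than in non-Tg cells for all 3 genes, by 2.78 ± 0.22 for Cd8b1 (limma interaction, adjusted p = 3.3e-07), 1.88 ± 0.18 for Cd8a (1.3e-06) and 0.53 ± 0.14 for Cd4 (0.00583). Of all genes, 31.5% were called with that sign of this interaction.

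The strain comparison asks what the NOD background changes. In DN2-3 cells none of the members was called in either genotype, where 10.6% of genes were called in non-Tg and 9.19% in BDC cells. At an unadjusted p under 0.05 limma would call 0 in non-Tg cells and 1, Cd4, in BDC cells. In non-Tg DN2-3 the NOD minus B6g7 difference was 0.26 ± 0.14 for Cd4, 0.26 ± 0.18 for Cd8a and -0.20 ± 0.22 for Cd8b1. The CD8 values turned on which NOD DN2-3 array was used. Cd8a differed by 0.54 (adjusted p = 0.0121) without replicate 2 and by -0.03 without replicate 1, and Cd8b1 by 0.25 and -0.66 (adjusted p = 0.0119 for the second). In BDC DN2-3 cells Cd4 was 0.44 ± 0.14 higher in NOD hosts with no overlap of arrays (adjusted p = 0.0807). That difference passed without either NOD DN2-3 array, which take no part in it (adjusted p = 0.0369). Cd8a and Cd8b1 differed there by 0.28 ± 0.18 and 0.12 ± 0.22.

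In non-Tg DN4 cells all 3 members were called, where 18.7% of genes were, and CD4 and CD8 genes went opposite ways. Cd8b1 was 3.12-fold lower in NOD than in B6g7 (-1.64 ± 0.22, limma adjusted p = 4.2e-04, rank 36), and Cd8a was lower by a smaller step (-0.57 ± 0.18, adjusted p = 0.0408). Cd4 was 1.81-fold higher in NOD (0.86 ± 0.14, adjusted p = 0.00185). Over all tested genes the median difference here was 0.13, or 0.21 with arrays centred on their medians, so small differences shift with the scaling. The Cd8a call was near the threshold. It was lost when any of 12 of the 16 arrays was left out (adjusted p up to 0.212), all but the 2 arrays each of NOD DN2-3 and BDC/B6g7 DN2-3, and also after centring (-0.49, adjusted p = 0.052).

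In BDC DN4 cells all 3 members were called higher in NOD hosts, where 25.8% of genes were. Cd8a was 3.00-fold higher (1.58 ± 0.18, limma adjusted p = 1.2e-05, rank 132), Cd8b1 2.20-fold (1.14 ± 0.22, adjusted p = 0.00107) and Cd4 1.66-fold (0.74 ± 0.14, adjusted p = 0.00106). Without the 4 male arrays Cd4 differed by 0.45 (adjusted p = 0.183) and Cd8b1 by 1.13 (adjusted p = 0.0754). So the fitted CD8 differences were below 0 without the transgene and above 0 with it, although the Cd8a call without the transgene was near the threshold. Whether the strain difference changed with the transgene, not whether its sign turned, was tested as the interaction of strain with transgene in DN4, which was 2.78 ± 0.31 for Cd8b1 (limma, adjusted p = 8.6e-05) and 2.15 ± 0.25 for Cd8a (adjusted p = 9.9e-05). These ranked 3 and 15 by size among all tested genes, of which 9.2% were called with that sign. For Cd4 the interaction was -0.12 ± 0.20 (95% confidence interval -0.56 to 0.32, adjusted p = 0.707). In DN2-3 cells no member had a called interaction, where 1.15% of genes did, nor would limma call 1 at an unadjusted p under 0.05 (0.17 ± 0.20 for Cd4, 0.02 ± 0.25 for Cd8a, 0.33 ± 0.31 for Cd8b1). Without replicate 1 of NOD DN2-3 the last was 0.79 (adjusted p = 0.0476), and without replicate 2 it was -0.13. Averaged over genotypes, the strain difference of Cd4 was larger in DN4 than in DN2-3 by 0.45 ± 0.14 (adjusted p = 0.0416), where 17.6% of genes were called with that sign. The replicate block within strain and genotype kept this call (adjusted p = 0.015) and called 3610 genes in place of 2329. That call was lost on leaving out any of 11 of the 16 arrays, all but the NOD DN2-3 pair, B6g7 DN4 replicate 2, NOD DN4 replicate 1 and BDC/B6g7 DN4 replicate 2.

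The transgene comparison asks what the early rearranged receptor changes. In DN2-3 cells Cd8b1 was higher in BDC mice of both strains, by 0.95 ± 0.22 in B6g7 (limma, adjusted p = 0.00656) and 1.28 ± 0.22 in NOD (adjusted p = 9.6e-04). It was the only member called in either strain, where 16.8% of genes were called higher in B6g7 and 21.5% in NOD. Cd8a was 0.41 ± 0.18 and 0.43 ± 0.18 higher without passing (adjusted p = 0.0936 and 0.0708), although its arrays did not overlap in either strain. Cd4 differed by -0.21 ± 0.14 and -0.04 ± 0.14. The Cd8b1 call in B6g7 was lost without B6g7 DN2-3 replicate 1 (0.82, adjusted p = 0.0626) or BDC/B6g7 DN2-3 replicate 1 (0.73, adjusted p = 0.073), and the NOD value was 0.82 without NOD DN2-3 replicate 2 and 1.73 without replicate 1. The Cd8a difference passed in B6g7 without BDC/B6g7 DN2-3 replicate 2 (0.64, adjusted p = 0.0444) or without either NOD DN2-3 array (adjusted p = 0.018). It passed in NOD without NOD DN2-3 replicate 1 (0.72, adjusted p = 0.00385).

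In DN4 cells of B6g7 hosts all 3 members were lower in BDC mice, where 29.2% of genes were. Cd8b1 was 8.33-fold lower (-3.06 ± 0.22, limma adjusted p = 1.0e-07, rank 46), Cd8a 5.77-fold lower (-2.53 ± 0.18, adjusted p = 7.3e-08, rank 84) and Cd4 1.51-fold lower (-0.59 ± 0.14, adjusted p = 0.00278). The Cd4 call was lost without BDC/B6g7 DN4 replicate 1, the male array whose Cd4 lay within the Xist range (-0.39). In DN4 cells of NOD hosts 14.8% of genes were lower, and Cd4 was the only member called (-0.72 ± 0.14, adjusted p = 0.00281). Cd8a differed by -0.38 ± 0.18 (adjusted p = 0.139) and Cd8b1 by -0.28 ± 0.22 (95% confidence interval -0.76 to 0.20, adjusted p = 0.407), with no overlap of arrays for either. Cd8a passed without either NOD DN2-3 array (adjusted p = 0.0323). The difference between the strains in this effect is the interaction given above.

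**Figure D2:**
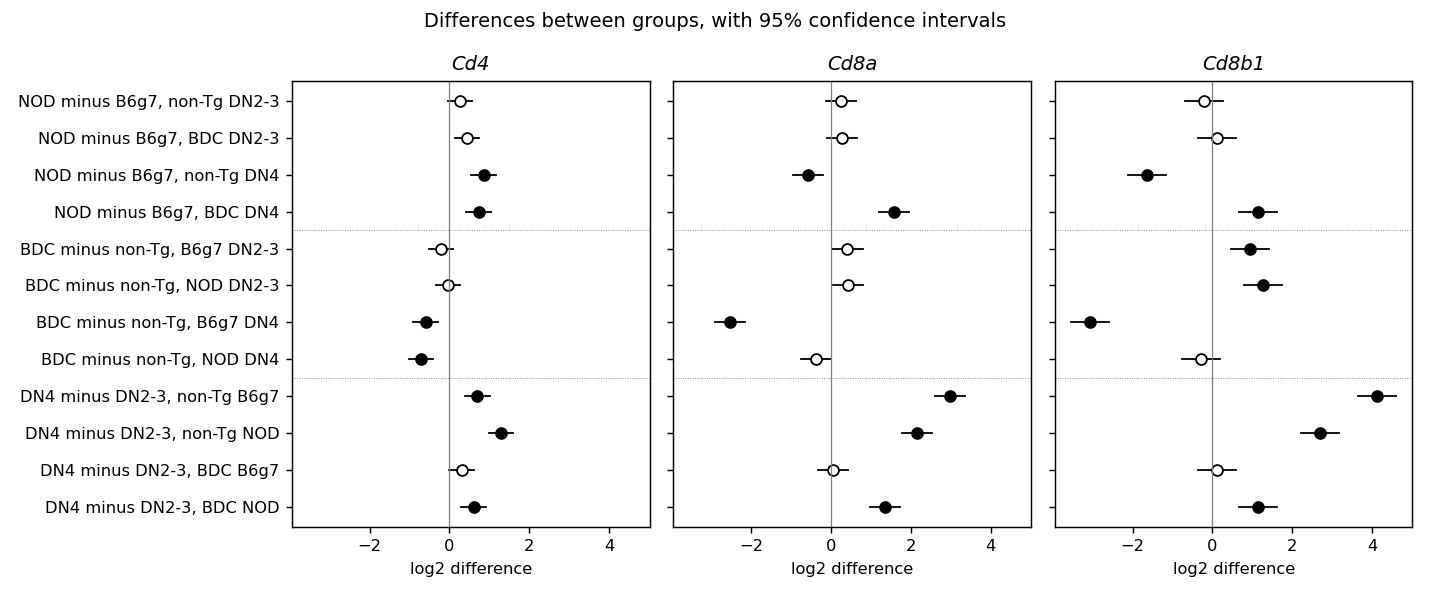
Log2 difference with its 95% confidence interval for each gene (panels) in 12 comparisons (rows); filled points passed at an adjusted p under 0.05 and open points did not. The CD8 genes lie left of 0 in the strain comparison of non-Tg DN4 and right of 0 in that of BDC DN4, while Cd4 lies right of 0 in both.

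Comparisons that share a group share its arrays: B6g7 DN4, where both CD8 genes were highest, enters the stage, strain and transgene comparisons of non-Tg B6g7 DN4 cells alike. The samples are bulk RNA of sorted cells, so fewer cells expressing a gene and less mRNA per cell cannot be told apart.

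The CD8 chains were also compared with each other. On each array the Cd8b1 minus Cd8a difference in log2 was taken. Its level has no meaning across probe sets, so only its change between groups was compared. With a single probe set per gene, whether each probe set reads alike in both strains was not tested. In DN4 it was 1.51 and 1.68 in B6g7 and 1.11 and 1.03 in BDC/B6g7, against 0.51 and 0.54 in NOD and 0.72 and 0.53 in BDC/NOD. Every B6g7 array was above every NOD array, with means of 1.33 ± 0.32 and 0.58 ± 0.10 (SD, n = 4 each). The difference of -0.76 had p = 0.0286 in an exact two-sided permutation test over 70 splits, the smallest p the design allows, and 0.0571 after adjustment over 4 such tests. In DN2-3 the difference was 0.41 and 0.52 in B6g7, 0.17 and -0.18 in NOD, 0.98 and 1.00 in BDC/B6g7 and 0.92 and 0.76 in BDC/NOD. There BDC arrays were above non-Tg arrays without overlap (0.92 ± 0.11 and 0.23 ± 0.31, n = 4 each, exact permutation p = 0.0286, adjusted 0.0571). The transgene in DN4 (-0.22, adjusted p = 0.543) and the strain in DN2-3 (-0.31, adjusted p = 0.457, exact permutation) did not separate the arrays. After adjustment none of the 4 tests passed 0.05. The tests treat all arrays of a stage as exchangeable. Each side joins 2 groups of 2 arrays, which may be technical replicates, so these p-values may be too small. Several DN2-3 values of Cd8a lie within the range of Xist on male arrays, which bounds how low the difference can be read.

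**Figure D3:**
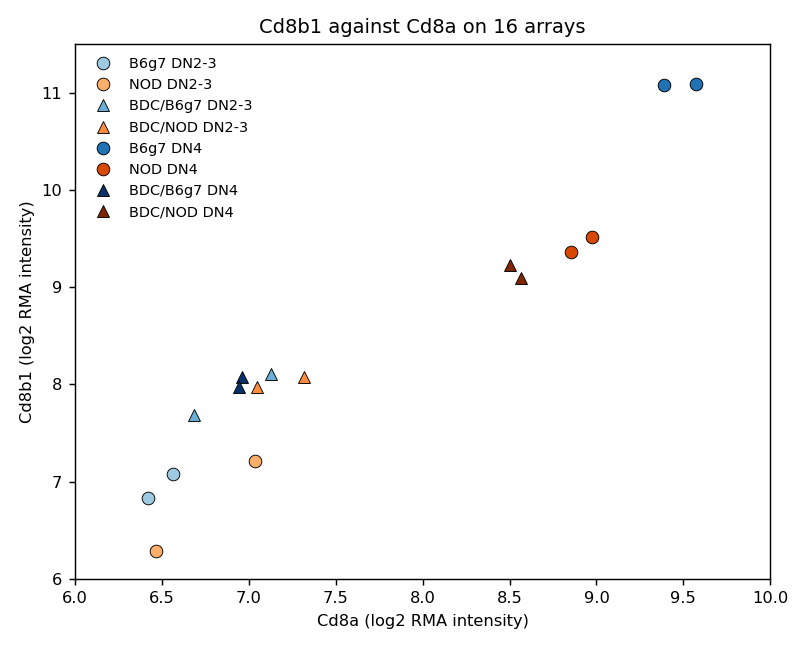
Cd8b1 against Cd8a in log2 RMA intensity on the 16 arrays, coloured by group (circles, non-Tg; triangles, BDC). The B6g7 DN4 arrays reach 11.09 for Cd8b1 with Cd8a at most 9.57, while NOD DN4 arrays lie at 8.85 to 8.97 for Cd8a and no higher than 9.52 for Cd8b1.

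Across the 8 group means the CD8 genes followed each other with r = 0.95, Cd4 and Cd8a with r = 0.82, and Cd4 and Cd8b1 with r = 0.64. These values describe 8 points that share arrays, strains and stages. Among 3013 other tested genes whose group means span at least 1 log2 unit, the 5 most like each member were ranked the same way. For Cd8a they were Raph1 (r = 0.92), a regulator of lamellipodia, Ikzf3 (0.91), the Ikaros family factor Aiolos, Snrpc (0.91), a U1 splicing protein, the sorting nexin gene Snx16 (0.90) and the Rag GTPase gene Rragd (0.88). The Cd8b1 list was led by Ndrg2 (0.91) and shared Snrpc (0.89), Raph1 (0.88) and Ikzf3 (0.88) with that of Cd8a, besides the nucleoside transporter gene Slc28a2b (0.88). Those of Cd4 were Tmcc3 (0.96), Ccdc141 (0.96), Phlda1 (0.94), Gpr155 (0.94) and Rragd (0.93). Their group means peaked in NOD DN4 as Cd4 did, which their choice by r over the same group means favours. Tmcc3 was bright enough to test only through NOD DN4 (7.11). Over the 16 single arrays Raph1, Ndrg2 and Ccdc141 ranked first for Cd8a, Cd8b1 and Cd4, and Snrpc fell to rank 10 for Cd8a.

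**Figure D4:**
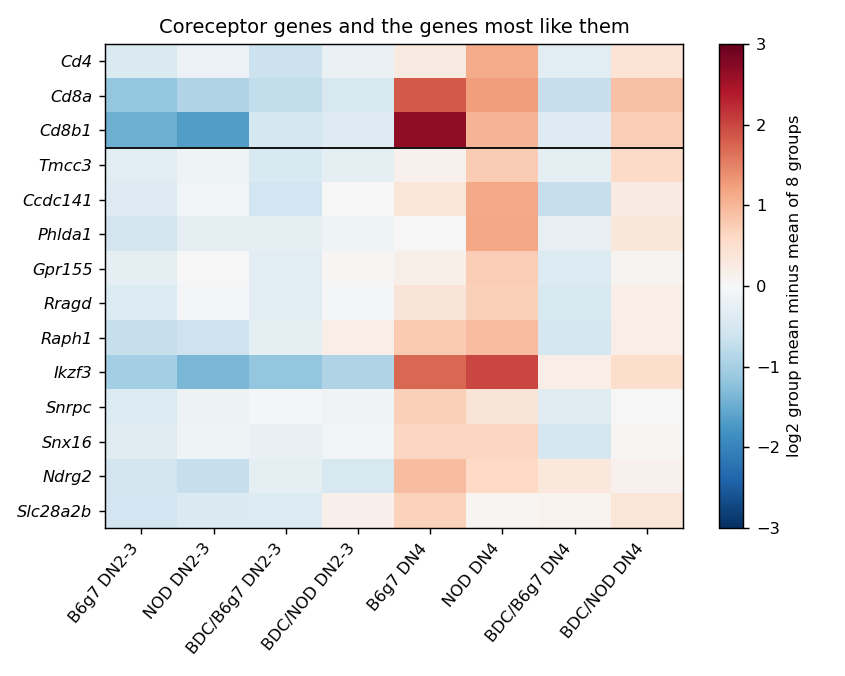
Group means of the members (above the line) and of the genes most like them (below), as log2 values minus each gene's mean over the 8 groups, from blue (lower) to red (higher). Red fills B6g7 DN4 and NOD DN4 for the genes like Cd8a, and mainly NOD DN4 for those like Cd4. The genes were chosen by likeness over these same means, which favours such a match.

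Of 28 listed regulators of the coreceptor genes, 24 were tested. RUNX factors silence Cd4 in double-negative cells and drive CD8 genes later, GATA3, TOX and the repressor of Cd8 genes PATZ1 act around the lineage choice, and Ikaros family factors bind the Cd8 locus. From DN2-3 to DN4 in non-Tg B6g7 cells, 2 regulators rose and 10 fell (median -0.29, against -0.04 over all genes, of which 17.8% rose and 25% fell). The rise of Ikzf3 was 2.73 ± 0.20 (limma, adjusted p = 6.6e-07), while Hes1, a Notch target, fell by 1.62 ± 0.08, Runx1 by 1.11 ± 0.16 and Runx3 by 1.06 ± 0.15. In non-Tg NOD cells 3 rose and 7 fell, where 26.3% of all genes rose and 12.3% fell, with Ikzf3 at 3.38 ± 0.20 and Runx3 at -1.74 ± 0.15. In BDC cells 12 rose and 1 fell in B6g7 hosts, where 20.4% of all genes rose and 30.4% fell (median 0.33, against -0.05). In NOD hosts 10 rose and 0 fell, where 7.67% of all genes rose and 3.41% fell (median 0.12, against -0.02). Ikzf3 rose by 1.37 ± 0.20 and 1.43 ± 0.20 there, and Satb1, an organiser of thymocyte chromatin, by 0.81 ± 0.10 and 0.65 ± 0.10.

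In DN4 cells, BDC mice differed from non-Tg mice in 17 of the 24 regulators in B6g7, 15 higher and 2 lower (median 0.43, against -0.02 over all genes). Most genes were called there, 30.1% higher and 29.2% lower. In NOD 9 were higher and 1 lower (median 0.18, against -0.03), where 10.6% of all genes were higher and 14.8% lower. Tox2 was higher by 3.11 ± 0.23 in B6g7 and 2.71 ± 0.23 in NOD, and Hes1 by 1.69 ± 0.08 and 1.61 ± 0.08. Runx3 stood at 11.45 ± 0.03 in BDC/B6g7 DN4 and 10.49 ± 0.02 in BDC/NOD DN4 (SD, n = 2), against 9.37 ± 0.36 in B6g7 and 8.70 ± 0.10 in NOD, a difference of 2.07 ± 0.15 and 1.80 ± 0.15 (limma, adjusted p = 9.0e-08 and 2.3e-06). Gata3 was 1.54 ± 0.12 and 1.38 ± 0.12 higher. Ikzf3 was lower in both, by -1.51 ± 0.20 and -1.50 ± 0.20. Between strains in BDC DN4, 1 regulator was higher and 6 lower in NOD, led by Runx3 (-0.95 ± 0.15). There 25.8% of all genes were higher and 15.3% lower. In non-Tg DN4, where 14% of all genes were higher and 4.75% lower, 0 regulators were higher and 2 lower, Runx3 (-0.68 ± 0.15) and Tox (-0.46 ± 0.10). The strain by transgene interaction in DN4, large for both CD8 genes, was called for 20.1% of all genes and for 1 regulator, Nfatc1 (-0.64 ± 0.18, adjusted p = 0.0222). Zbtb7b, the CD4 lineage factor ThPOK, did not reach the brightness filter, with group means from 6.21 to 6.59.

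**Figure D5:**
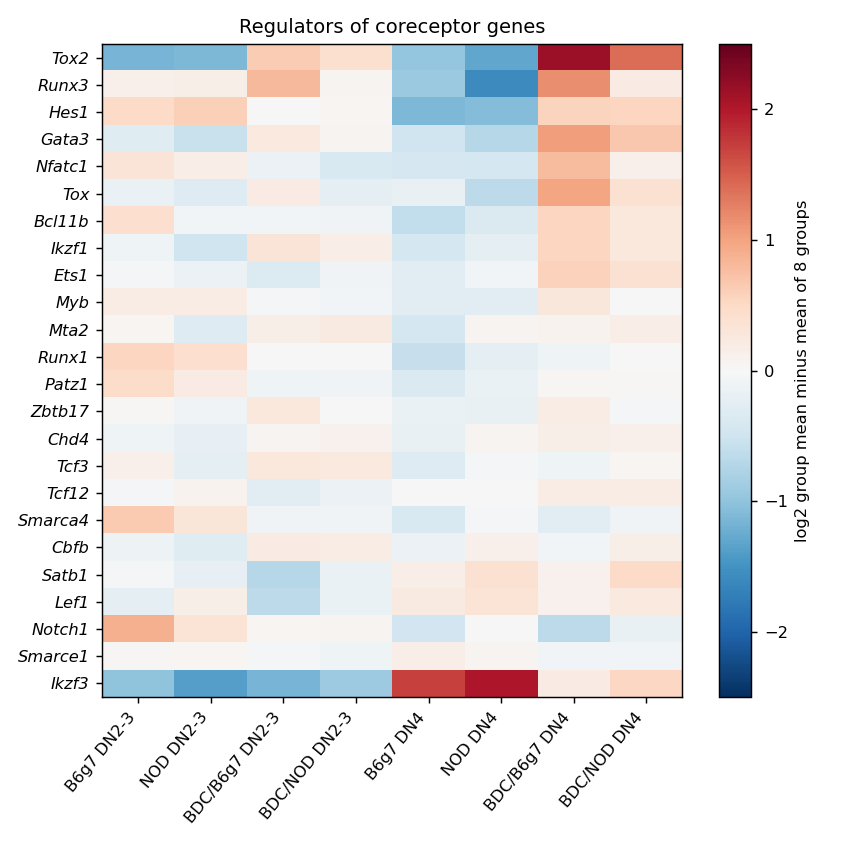
Group means of the 24 tested regulators as log2 values minus each gene's mean over the 8 groups, ordered by the BDC minus non-Tg difference in B6g7 DN4. Tox2, Runx3, Hes1 and Gata3 are red in BDC DN4 groups and blue in non-Tg DN4 groups, and Ikzf3 at the bottom is darkest red in non-Tg DN4 groups (10.49 and 10.79), paler in BDC DN4 groups (8.98 and 9.29) and blue in DN2-3 groups (7.40 to 7.86).

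Genes that act with the coreceptors in receptor signalling were also mostly higher in BDC DN4 cells. Of 19 tested, 16 were higher and 1 lower in B6g7 (median 0.98) and 11 higher and 0 lower in NOD (median 0.45). The 19 do not include Lck. They mix genes that raise the signal with restraints of it such as Csk, Pag1 and Ptpn22, which were also called higher in B6g7. Over all genes 30.1% were higher in B6g7 and 10.6% in NOD, with medians of -0.02 and -0.03. Zap70, the kinase recruited to the activated receptor, was higher by 1.48 ± 0.09 and 0.68 ± 0.09, Cd247, the zeta chain, by 1.49 ± 0.12 and 0.40 ± 0.12, and Unc119, an activator of LCK, by 1.11 ± 0.11 and 0.67 ± 0.11. Cd3e did not pass (0.21 ± 0.10 and 0.20 ± 0.10). For the strain by transgene interaction in DN4, 8 of the 19 were called lower and 0 higher (median -0.52, against -0.04 over all genes, of which 10.9% were lower), the sign opposite to that of Cd8a and Cd8b1. A list of genes of the double-positive stage shared Tox, Satb1, Ikzf3 and Tcf12 with the regulators and Themis, Cd5 and Cd2 with these partners. It also held Rag1, Rag2, Dntt and Ptcra, the last a chain of the pre-T cell receptor that signals at DN3. The list was therefore not confined to the double-positive stage. Of its 24 tested genes, 5 rose and 10 fell from DN2-3 to DN4 in non-Tg B6g7 and 8 rose and 9 fell in non-Tg NOD. In BDC B6g7 13 rose and 5 fell, and in BDC NOD 12 rose and 0 fell. The list's median was -0.12, -0.25, 0.43 and 0.47 in these comparisons, against -0.04, 0.10, -0.05 and -0.02 over all genes, of which 42.8%, 38.6%, 50.8% and 11.1% were called. Of all genes, 17.8% rose and 25% fell in non-Tg B6g7, and 26.3% rose and 12.3% fell in non-Tg NOD. In BDC B6g7 20.4% rose and 30.4% fell, and in BDC NOD 7.67% rose and 3.41% fell.

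Marker genes of other cells were examined beside the members. Mature T cell markers (15 of 17 matched) summed to 16503 to 18699 on the linear scale in BDC/B6g7 DN4 and 8307 to 8508 in BDC/NOD DN4, against 3480 to 4388 in the non-Tg DN4 groups and 4855 to 6420 in DN2-3. Markers of innate-like and gamma-delta T cells (18 of 20 matched) summed to 38184 to 38461 in BDC/B6g7 DN4 and 21977 to 24032 in BDC/NOD DN4, against 3222 to 4252 in non-Tg DN4. Both lists were highest in the DN4 group whose Cd8a and Cd8b1 were lowest. In DN2-3 the innate-like list moved the same way as Cd8b1: it summed to 16758 to 18885 in BDC/B6g7 and 11996 to 12006 in BDC/NOD, against 6915 to 8874 in the non-Tg groups. Their part in either result was not tested. Dendritic cell markers, considered because some of these cells carry CD8 alpha homodimers, summed to 2606 to 3098 in every group. Of the 17 matched, 8 never rose above 6.73, among them Xcr1, Clec9a and Itgax, which read at most 6.15, 5.06 and 6.04. The other 9 did, including Tcf4 (up to 10.12), Ly75 (9.09), Irf8 (8.39) and H2-Eb1 (7.63), and the part of this list in the results was not tested. Among B cell, myeloid, erythroid and thymic stroma markers, 6 of 7, 7 of 10, 3 of 4 and 3 of 10 never rose above 6.73. Their sums ran from 686 to 1125, from 693 to 1079, from 254 to 345 and from 1610 to 2649 over all arrays.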

How the data were processed

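RNA of sorted thymocytes was measured on 16 single-channel Affymetrix arrays. The deposited values are linear intensities that the authors computed with RMA in Affymetrix Power Tools, per the submitters' processing notes; the version was not given in the sources used here. RMA corrects background and is meant to make the arrays' distributions alike, which compresses low values. The deposited distributions still differed in spread, with a ratio of upper to lower quartile from 6.82 to 10.30 over the arrays. Here the deposited intensities were turned into log2 without a pseudocount. Of 25108 probe sets, 21157 had 1 gene symbol, 1341 several and 2610 none, and the brightest probe set stood for each gene. The 10689 genes with a group mean of at least 7.05 in some group were tested with limma 3.58.1 in R 4.3.3, on 8 group means with 8 residual degrees of freedom. P-values were adjusted by Benjamini-Hochberg over all tested genes in each comparison, with a threshold of 0.05. The script was tested on simulated data. The number of arrays limits the precision.

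The members and lists were chosen with earlier results of these data known. Named regulators were the called ones with the largest differences in a comparison, at most 6, and the like genes were the 5 with the highest Pearson r. The partner genes named were chosen after their values were seen. Alternatives were filters, scalings, a replicate block, sex as a term, array weights, the samples in the fit, the variance prior and leaving out each array. Leaving out the 4 male arrays was chosen after seeing the data. Same-numbered arrays were checked for pairing: differences between replicates 1 and 2 correlated between groups from -0.25 to 0.58, over 0.1 in 12 of 28 pairs, so one number was not taken to pair samples across all groups. Between DN2-3 and DN4 of the same strain and genotype they exceeded 0.1 in 4 of 4 pairs (0.10 to 0.58). The highest of all pairs were of this kind, non-Tg NOD (0.58), BDC/B6g7 (0.48) and BDC/NOD (0.46). Next came BDC/NOD DN2-3 with BDC/B6g7 DN4 (0.41). The non-Tg B6g7 pair (0.10) lay below pairs of unlike hosts, such as NOD DN2-3 with B6g7 DN4 (0.26). Whether the stages are paired is therefore not settled, and the labels do not state it. Among BDC groups, whose numbers also mark sex, all 6 pairs ran from 0.31 to 0.48. A replicate block within strain and genotype, with 4 residual degrees of freedom, was fitted as an alternative for comparisons of stages, chosen after seeing the data.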

Additional observations from a re-analysis of the deposited data

Results flagged for a closer look

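The effects of strain, transgene and stage on the coreceptor genes differed between groups in limma tests of the difference itself. In DN4, the BDC minus non-Tg difference was more positive in NOD than in B6g7 by 2.15 for Cd8a and by 2.78 for Cd8b1 (adjusted p = 9.9e-05 and 8.6e-05). Averaged over strains, the change from DN2-3 to DN4 differed between BDC and non-Tg cells by -0.53 for Cd4, -1.88 for Cd8a and -2.78 for Cd8b1. Averaged over genotypes, the strain difference of Cd4 was larger in DN4 by 0.45 (adjusted p = 0.0416).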

How the results depend on the processing

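Of 1296 alternative values, 1208 kept their direction and side of the threshold. Many of these could not change direction. Leaving out an array outside a comparison left the difference as it was and moved only its standard error and p-value. Where values did not keep both, the cause was not tested beyond the fewer arrays of some fits. Every group holds 1 array of each replicate number, so the replicate block shared by all groups cannot shift a difference, only its standard error. With that block 0 calls of the members changed, and no count of called genes moved by over 1.5 times. The replicate block within strain and genotype called Cd4 by stage in BDC B6g7 (0.31), moved the strain by stage count from 2329 to 3610 and changed no other call of a member. No second probe set existed for a member, so that alternative was not run. With array weights, Cd4 by strain in BDC DN2-3 (0.44), Cd8a by transgene in B6g7 DN2-3 (0.41) and in NOD DN4 (-0.38) passed, and Cd4 strain by stage (0.45) did not. With only the arrays compared, the same first 3 values and Cd8b1 by transgene in NOD DN4 (-0.28) passed, and Cd8b1 by transgene in NOD DN2-3 (1.28) did not. Centring on medians lost Cd8a by strain in non-Tg DN4 (-0.49), and centring and renewed quantile normalization called Cd8a by transgene in NOD DN2-3 (0.50 and 0.49) and turned Cd4 there to 0.031 and 0.048. Quantile normalization also called Cd8a in B6g7 DN2-3 (0.44). Sex as a term lost Cd8a by strain in non-Tg DN4 (-0.57) and Cd4 strain by stage (0.45), which no filter also lost.

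Without the 4 male arrays, calls were lost for Cd8a by strain in non-Tg DN4 (-0.57), Cd4 (0.45) and Cd8b1 (1.13) by strain in BDC DN4, Cd8b1 by transgene in B6g7 DN2-3 (0.73), Cd4 by transgene in B6g7 DN4 (-0.39), all 3 by stage in BDC NOD (0.57 for Cd4, 1.25 for Cd8a, 1.02 for Cd8b1), Cd4 transgene by stage (-0.44) and Cd4 strain by stage (0.32). With 1 array left out at a time, the strain difference ran from -0.026 to 0.54 for Cd8a and from -0.66 to 0.25 for Cd8b1 in non-Tg DN2-3, from 0.39 to 0.48 for Cd4 and from -0.087 to 0.34 for Cd8b1 in BDC DN2-3, and from -0.66 to -0.48 for Cd8a in non-Tg DN4. The transgene difference ran from 0.19 to 0.64 for Cd8a and from 0.73 to 1.16 for Cd8b1 in B6g7 DN2-3, from -0.11 to 0.037 for Cd4 and from 0.15 to 0.72 for Cd8a in NOD DN2-3, from -0.80 to -0.39 for Cd4 in B6g7 DN4 and from -0.44 to -0.32 for Cd8a in NOD DN4. The stage difference ran from 0.11 to 0.51 for Cd4, from -0.17 to 0.27 for Cd8a and from -0.090 to 0.33 for Cd8b1 in BDC B6g7, and from 0.53 to 0.69 for Cd4 and from 1.07 to 1.20 for Cd8b1 in BDC NOD. Strain by transgene ran from -0.27 to 0.30 for Cd8a and from -0.13 to 0.79 for Cd8b1 in DN2-3 and from -0.32 to 0.081 for Cd4 in DN4, and strain by stage from 0.34 to 0.55 for Cd4 and from -0.44 to 0.019 for Cd8b1. Counts of called genes moved more: for example, by strain in non-Tg DN2-3 from 1130 to between 81 and 1403 over the planned settings that keep all arrays, by transgene in NOD DN2-3 from 3808 to between 297 and 3985, by stage in non-Tg NOD from 4124 to between 588 and 4557, and by stage in BDC NOD from 1185 to between 934 and 3755. Signal within the range of Xist on male arrays limits Cd4 and Cd8a in DN2-3, and Cd4 on 1 DN4 array.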
